A study of Mus musculus with 18 samples.

Results

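*Igf1*, *Igfbp4* and *Socs2* encode a growth factor, a protein that binds it and a protein that restrains the signal through which growth hormone induces it. The genes were picked by name with their levels in these arrays already known, including the difference between operated and unoperated knees, so their levels and differences are given below as a description and carry no test. All probes annotated to the symbols were taken, which gave 6 probes, 2 for each gene, and 3 genes of the 11499 that the array annotation names from single-gene probes.

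The cartilage came from the medial tibial plateau of male C57Bl6/J mice. Their right knee had been operated on by destabilising the medial meniscus (DMM), surgery that frees the meniscus and leads to osteoarthritis. The left knee of the same mice was not operated and gave the contralateral cartilage, so all contralateral samples came from animals that had undergone surgery, and no sham-operated knee was among the samples. Tissue was taken 2, 4 and 8 weeks after surgery, when the mice were 12, 14 and 18 weeks of age, and each of the 18 arrays, 3 per group, read a pool from 8 animals. Since an array reads a pool, the spread between arrays is a spread between pools and not between single mice.

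IGF1 is a secreted factor that acts through the receptor kinase IGF1R and is known in cartilage for promoting matrix synthesis and chondrocyte survival. In the extracellular space it is held by binding proteins. IGFBP4 mostly keeps the factor from its receptor, and is itself cut by the proteinase PAPP-A, which the stanniocalcins STC1 and STC2 inhibit. Growth hormone raises transcription of *Igf1* and of *Socs2* through JAK2 and STAT5B, and SOCS2 in turn dampens the growth hormone receptor, so that mice lacking SOCS2 grow large.

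Promoters were looked up for all 3 genes, since all differed in the same direction between the knees. They were read from a RefSeq promoter table on build GRCm38.p6, which held an entry for 2 of the 3 genes, *Igf1* and *Igfbp4*. Each window runs from 250 bases before to 50 bases after the annotated start, on the plus strand. The *Igf1* window is chr10:87860861-87861160, and the *Igfbp4* window is chr11:99040994-99041293. Capitals mark a TATAAA match.
Igf1: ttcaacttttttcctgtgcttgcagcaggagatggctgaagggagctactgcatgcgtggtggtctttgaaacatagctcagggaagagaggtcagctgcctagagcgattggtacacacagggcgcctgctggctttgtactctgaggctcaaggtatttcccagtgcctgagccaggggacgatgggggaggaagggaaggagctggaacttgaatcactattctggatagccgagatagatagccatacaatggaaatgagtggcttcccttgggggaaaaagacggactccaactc
Igfbp4: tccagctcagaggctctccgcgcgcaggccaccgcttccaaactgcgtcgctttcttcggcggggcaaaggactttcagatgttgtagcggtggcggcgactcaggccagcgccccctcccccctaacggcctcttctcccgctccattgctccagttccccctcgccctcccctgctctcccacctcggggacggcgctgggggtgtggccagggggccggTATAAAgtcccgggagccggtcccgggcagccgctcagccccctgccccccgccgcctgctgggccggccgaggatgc
The *Igf1* window had a GC content of 52.3% and that of *Igfbp4* 71.3%, where the median over all 32851 promoters of this length was 52.7%. The windows were searched on both strands for TTCNNNGAA, a form bound by STAT factors, and TGTTTAC, a form bound by FOXO factors, and neither window held either, while 8.3% and 3.65% of all promoters did. TATAAA, a search added after the sequences had been seen, matched the *Igfbp4* window at position -28 from the start and was held by 13.6% of all promoters. None of the forms contains another, and a match or its absence in these letters is a description only.

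*Igf1*, the ligand, was brighter in DMM than in contralateral cartilage at every week. All values are log2 intensities, normalised by the authors across all arrays, so that a difference of 1 is a doubling. Each gene is described by its brighter probe (highest mean over the 18 arrays) and then by its second probe, and the level of a probe is not set against that of another. At 2 weeks the brighter *Igf1* probe (ILMN_1225565) read 9.92, 9.36 and 9.18 in contralateral cartilage and 10.86, 11.27 and 10.86 in DMM cartilage. All DMM arrays lay above all contralateral arrays, and the means of 9.49 ± 0.38 and 10.99 ± 0.24 (SD, n = 3) differed by 1.51 (SE 0.20), or 2.84-fold.

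At 4 weeks the same *Igf1* probe read 8.21, 8.82 and 9.37 against 9.73, 10.53 and 10.43 in DMM. The groups again did not overlap, with a difference of 1.43 (SE 0.28), or 2.69-fold. At 8 weeks it read 9.76, 8.37 and 8.07 in contralateral and 9.95, 10.24 and 9.66 in DMM cartilage. Here the groups overlapped, because contralateral replicate 1 at 9.76 stood above DMM replicate 3. The difference was 1.22 (SE 0.40), or 2.32-fold, and 1.73 without that contralateral array.

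The second *Igf1* probe (ILMN_2769884) showed a steeper decline of the difference. At 2 weeks it read 7.78, 6.24 and 6.80 in contralateral and 8.99, 9.87 and 9.25 in DMM cartilage, with no overlap and a difference of 2.43 (SE 0.33), or 5.40-fold. At 4 weeks it read 6.20, 6.998 and 7.60 against 7.43, 8.67 and 8.55. At 8 weeks it read 6.79, 6.09 and 6.55 against 8.21, 7.39 and 6.64. The groups overlapped at both later weeks, where the differences were 1.28 (SE 0.36) and 0.94 (SE 0.37). From 2 to 8 weeks the *Igf1* gap changed by -0.29 (SE 0.50) on the brighter probe and by -1.49 (SE 0.62) on the second. A difference between the 2 probes was not tested.

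*Igfbp4*, the binding protein, had its largest gap at 2 weeks and its smallest at 8. Its brighter probe (ILMN_2694955) read 8.78, 7.86 and 8.08 in contralateral and 9.63, 10.33 and 9.81 in DMM cartilage at 2 weeks. The means were 8.24 ± 0.48 and 9.93 ± 0.36 (SD, n = 3), a difference of 1.69 (SE 0.24), or 3.22-fold. All DMM arrays were higher than all contralateral arrays.

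At 4 weeks *Igfbp4* read 7.38, 8.11 and 8.00 in contralateral and 8.80, 9.28 and 9.23 in DMM cartilage, again without overlap, a difference of 1.27 (SE 0.20), or 2.42-fold. At 8 weeks it read 7.93, 7.46 and 8.05 against 8.32, 8.29 and 8.23. The DMM arrays were still all above the contralateral ones, but by 0.47 (SE 0.19), or 1.38-fold, on average, and the spread of the DMM arrays was 0.04 (SD). Without contralateral replicate 2, the lowest of the week, the 8-week difference was 0.29.

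From 2 to 8 weeks the gap in *Igfbp4* changed by -1.22 (SE 0.35), and from 4 to 8 weeks by -0.81 (SE 0.35). Its second probe (ILMN_1258988) followed the same order with smaller differences. It read 8.11, 7.81 and 7.51 against 8.47, 9.03 and 8.55 in DMM at 2 weeks, without overlap and with a difference of 0.87 (SE 0.19). The differences were 0.77 (SE 0.18) at 4 weeks, also without overlap, and 0.38 (SE 0.21) at 8 weeks, where DMM replicate 3 at 7.44 lay below contralateral replicates 1 and 3 at 7.65 and 7.49.

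*Socs2*, the inhibitor, lay above contralateral cartilage at each week, with similar gaps at 2 and 8 weeks and a smaller one at 4. The brighter probe (ILMN_2628178) read 8.85, 8.26 and 8.29 in contralateral and 9.45, 9.43 and 9.65 in DMM cartilage at 2 weeks. The means of 8.47 ± 0.33 and 9.51 ± 0.12 (SD, n = 3) differed by 1.04 (SE 0.17), or 2.06-fold, without overlap.

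At 4 weeks *Socs2* read 8.18, 8.64 and 8.62 against 8.86, 9.23 and 9.12 in DMM, a difference of 0.59 (SE 0.16), or 1.51-fold. At 8 weeks it read 8.40, 8.27 and 8.11 against 9.50, 9.35 and 9.50, a difference of 1.19 (SE 0.15), or 2.28-fold. The groups did not overlap at either week. The gap changed by -0.45 (SE 0.24) from 2 to 4 weeks and by 0.60 (SE 0.24) from 4 to 8 weeks.

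The second *Socs2* probe (ILMN_1250749) is annotated to a cDNA clone and not to a RefSeq transcript. It read 6.55, 6.70 and 6.95 against 7.41, 6.96 and 7.38 in DMM at 2 weeks, where contralateral replicate 3 at 6.95 lay just below DMM replicate 2 at 6.96, so that the groups were barely apart. Its differences were 0.52 (SE 0.16), 0.23 (SE 0.14) and 0.51 (SE 0.24) at 2, 4 and 8 weeks, and the groups overlapped at 4 and 8 weeks. Within groups it did not follow the brighter *Socs2* probe (r = -0.21 over 18 arrays after group means were removed).

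**Figure D1:**
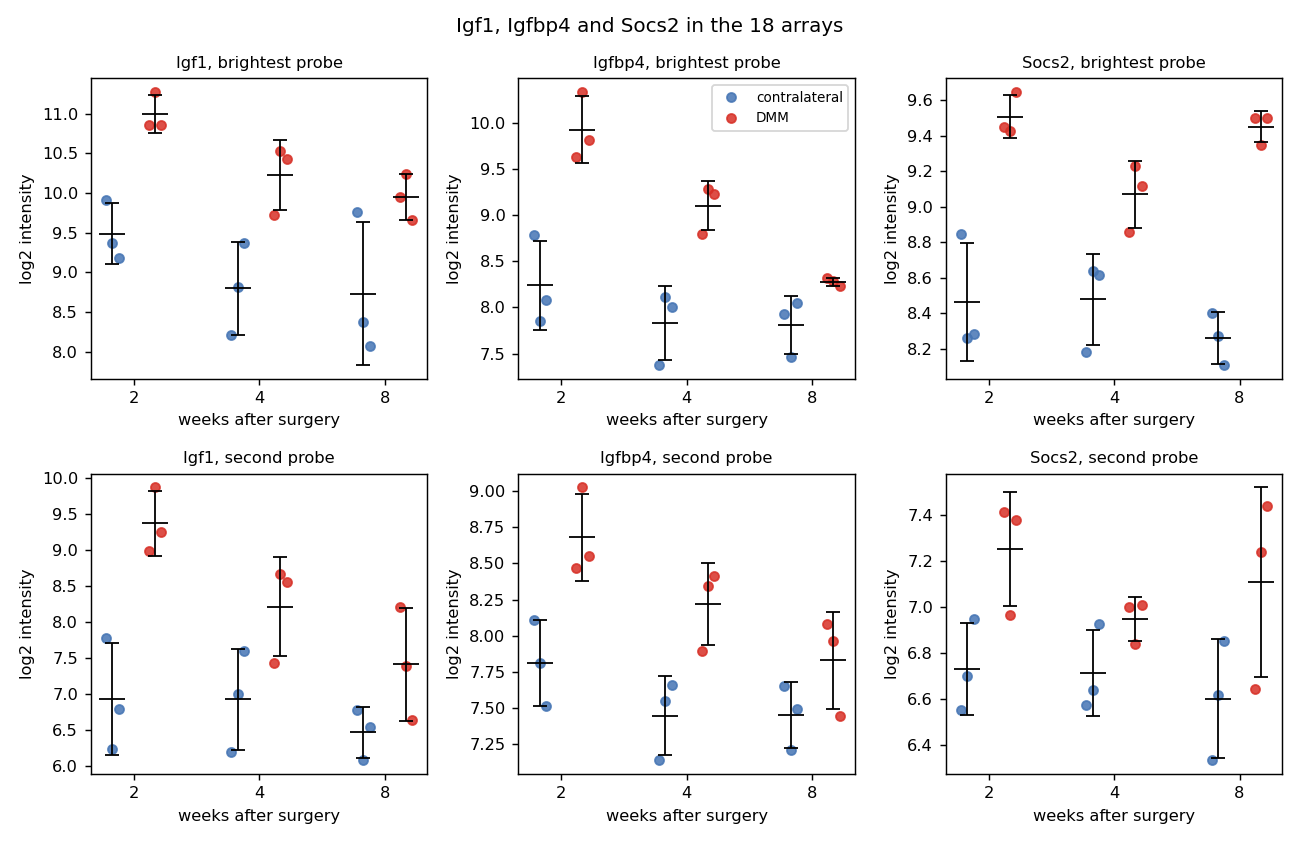
Log2 intensity of the 6 probes of *Igf1*, *Igfbp4* and *Socs2* in each of the 18 arrays by weeks after surgery, with contralateral arrays in blue and DMM arrays in red, the long bar at the mean and the whiskers at 1 SD (n = 3); each panel has its own axis, which does not start at 0. On the brighter probes the DMM arrays of a week stand above all its contralateral arrays, except for *Igf1* at 8 weeks.

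Across the 22999 probes, the share with all DMM arrays above all contralateral arrays was 13.6%, 9.18% and 7.29% at 2, 4 and 8 weeks. Of the 6 probes of the 3 genes, 6, 4 and 2 were so placed in these weeks. The genes were picked on these differences, so nothing is read from those counts. The reverse share, with all DMM arrays below all contralateral arrays, was not counted.

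The levels of the brighter probes across the groups differed in order between the genes. For *Igf1* the DMM means were 10.99, 10.23 and 9.95 at 2, 4 and 8 weeks, followed by the contralateral means of 9.49, 8.80 and 8.73. The 2-week DMM arrays lay above all 4-week DMM arrays, while the 4-week and 8-week DMM arrays overlapped, as did the 8-week DMM and 2-week contralateral arrays, and the contralateral groups overlapped with one another. For *Igfbp4* the order was the same, with DMM means of 9.93, 9.10 and 8.28 and contralateral means of 8.24, 7.83 and 7.81. Its DMM groups were all apart from one another, and the 8-week DMM arrays, from 8.23 to 8.32, lay inside the range of the 2-week contralateral arrays, from 7.86 to 8.78. On the second *Igfbp4* probe the 4-week DMM arrays, from 7.90 to 8.41, overlapped the 8-week ones, from 7.44 to 8.08.

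For *Socs2* the 2-week and 8-week DMM means, 9.51 and 9.45, were next to each other and their arrays overlapped. The 4-week DMM mean was 9.07, with all its arrays below those of both other DMM groups. The contralateral means, 8.48, 8.47 and 8.26 at 4, 2 and 8 weeks, lay below that mean with overlapping arrays. On the second *Socs2* probe the 4-week DMM arrays, from 6.84 to 7.01, overlapped both other DMM groups. Among DMM arrays, 10.8% of all probes had every 2-week array above every 4-week array, as the brighter probes of all 3 genes had. Every 4-week array stood above every 8-week array for 9.23% of all probes, as for the brighter *Igfbp4* probe. These counts too are of genes that were chosen with their values known.

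The change of the DMM effect between weeks was tested over all probes with limma, and 0 of 22999 probes (0%) passed the Benjamini-Hochberg threshold of 0.05 for 4 against 2 weeks, 0 (0%) for 8 against 2 weeks and 0 (0%) for 8 against 4 weeks. At an unadjusted p under 0.05 there were 1250, 2419 and 1742 probes. No difference in time course between *Igf1*, *Igfbp4* and *Socs2* was tested.

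**Figure D2:**
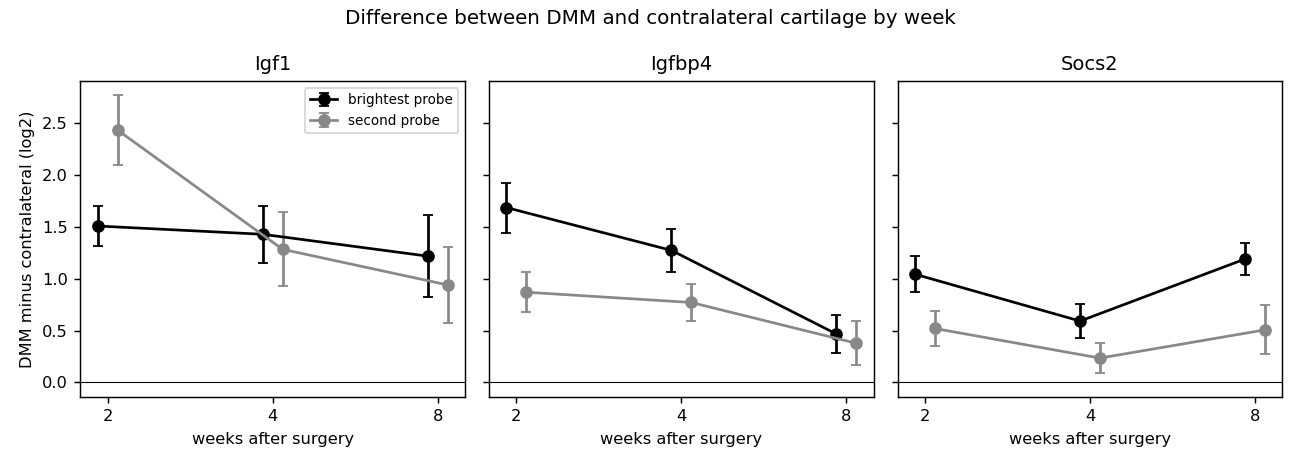
Difference of group means, DMM minus contralateral, in log2 intensity at 2, 4 and 8 weeks after surgery (drawn evenly spaced) for the brighter (black) and second (grey) probe of each gene; whiskers are 1 SE of the fit (n = 3 arrays per group). The *Igfbp4* gap on the brighter probe went from 1.69 to 0.47, and the *Socs2* gap was 1.04, 0.59 and 1.19.

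Over the 18 arrays the brighter probes of the 3 genes were positively correlated. Pearson's r was 0.88 between *Igf1* and *Igfbp4*, 0.84 between *Igf1* and *Socs2* and 0.74 between *Igfbp4* and *Socs2*. In each week the DMM and contralateral means differ in all 3 genes. For that reason r was also taken after the means of the 6 groups were removed, and was then 0.57, 0.64 and 0.66. The second *Socs2* probe was less alike, with r from 0.38 to 0.52 against the probes of *Igf1* and *Igfbp4*, and below 0, from -0.55 to -0.25, after group means were removed. These values are descriptive, from arrays normalised together.

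The genes whose levels were most like those of *Igf1* over the 18 arrays, among the brightest probes of all genes, were *C1qtnf1* (r = 0.951), *Gpm6b* (0.933), *Aebp1* (0.922), *Angptl1* (0.922) and *Antxr1* (0.922). C1QTNF1 and ANGPTL1 are secreted proteins, GPM6B is a membrane glycoprotein, AEBP1 is a collagen-binding matrix protein and ANTXR1 a collagen-binding receptor. Most opposed were *Cdo1* (-0.927), which encodes cysteine dioxygenase, and *Acsl5* (-0.915), an acyl-CoA synthetase. After group means were removed, r was 0.803, 0.732, 0.681, 0.683 and 0.671 for the 5 nearest in the order above. For *Cdo1* and *Acsl5* it was then -0.692 and -0.675.

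For *Igfbp4* the most alike were *Itgbl1* (0.954), *Angptl1* (0.952), *Olfml2b* (0.946), *Gpm6b* (0.94) and *Loxl1* (0.94), a lysyl oxidase of elastic fibres. *Angptl1* and *Gpm6b* were thus among the 5 nearest for both *Igf1* and *Igfbp4*. Most opposed to *Igfbp4* were *Hspa2* (-0.96), a heat shock protein of the HSP70 family, and *Meltf* (-0.945), melanotransferrin, which is abundant in cartilage. After group means were removed, r was 0.785, 0.768, 0.767, 0.803 and 0.777 for the 5 nearest in the order above. For *Hspa2* and *Meltf* it was then -0.806 and -0.627.

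For *Socs2* the most alike were *Col15a1* (0.946), a basement membrane collagen, *Dkk3* (0.933), the small leucine-rich proteoglycans *Lum* (0.932) and *Fmod* (0.923), and *Nbl1* (0.911), a secreted BMP antagonist. *Fmod* differed between DMM and contralateral by 1.28, 1.29 and 1.97 at 2, 4 and 8 weeks, and *Col15a1* by 0.96, 0.71 and 1.11. The 2 most opposed were *Stk32b* (-0.92), a kinase, and *Nampt* (-0.916), an enzyme of NAD synthesis. After group means were removed, r was 0.824 for *Col15a1*, 0.627 for *Dkk3*, 0.667 for *Lum*, 0.43 for *Fmod* and 0.684 for *Nbl1*. For *Stk32b* and *Nampt* it was then -0.444 and -0.511. No gene among the 5 nearest to *Socs2* was among those nearest to *Igf1* or *Igfbp4*.

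The rest of the IGF axis was examined through lists of ligands, receptors, binding proteins, their proteinases, the growth hormone pathway, the SOCS family and the signalling arms. The lists held 84 other genes, of which 60 were measured with 123 probes. The other 24 had no probe annotated to them alone among the 22999 and could not be read. At 2 weeks 8 of the 60 genes rose in DMM cartilage (*Igfbp3*, *Igfbp5*, *Igfbp6*, *Igf2r*, *Stc1*, *Socs3*, *Grb10* and *Foxo3*) and 2 fell (*Stc2* and *Rheb*), by limma with Benjamini-Hochberg adjustment over all 22999 probes. Of all 11499 genes, with 18998 probes, 4.89% had a probe called higher and 3.77% a probe called lower. A gene counted if any of its probes passed, and the 60 genes had more probes per gene, which favours them beside those shares. The lists were chosen with earlier results of these data known, so the counts are a description. The median difference over the 60 genes was 0.06, against 0.01 over all genes.

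At 4 weeks 0 of the 60 genes passed in limma, where 0.504% of all genes were called higher and 0.435% lower. At an unadjusted p under 0.05, 6 of the 60 were higher and 4 lower, near the 10.7% and 8.22% of all genes with such a probe. In a 4-week fit with a block for the replicate number, *Socs3* was called higher and *Stc2* lower, among 341 probes called. At 8 weeks 0 passed in limma, where 0% of all genes were called higher and 0% lower. Unadjusted, 6 were higher and 5 lower, beside 7% and 5.8% of all genes. The largest size of a difference among the 60 genes was 1.19, 0.88 and 0.50 at 2, 4 and 8 weeks. These sizes are for the brightest probe of each gene, on which *Igf1* differed by more in each week, *Igfbp4* by more at 2 and 4 weeks and *Socs2* by more at 8 weeks, as genes picked for their differences.

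Of the 4 other ligands and receptors measured, *Igf2r* was the 1 that passed. *Igf2*, the other ligand, differed by 0.17 (SE 0.15), 0.18 (SE 0.23) and -0.26 (SE 0.16) at 2, 4 and 8 weeks (adjusted p = 0.567, 0.799 and 0.692). *Igf1r*, the signalling receptor, was measured by 4 probes, none of which passed. The brightest differed by -0.34, -0.42 and -0.06, with adjusted p = 0.147, 0.201 and 0.943, and its DMM arrays lay below its contralateral arrays at 2 and 4 weeks. *Igf2r*, a receptor that clears IGF2, rose at 2 weeks from 8.81 ± 0.32 to 9.70 ± 0.08 (SD, n = 3), a difference of 0.89 (SE 0.17, adjusted p = 0.011), and its second probe rose by 1.02 (adjusted p = 0.009). At 4 and 8 weeks the brighter *Igf2r* probe differed by 0.35 and 0.22 (adjusted p = 0.404 and 0.790), while the second probe differed by 0.05 and -0.52 (adjusted p = 0.920 and 0.658), so that the probes had opposite signs at 8 weeks. The change of the effect on the second probe from 2 to 8 weeks was -1.54 (SE 0.33) and did not pass over all probes (adjusted p = 0.140). *Insr*, the insulin receptor, differed by 0.42 at 2 weeks (adjusted p = 0.172).

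Among the binding proteins 3 of the 4 measured genes beside *Igfbp4* rose at 2 weeks. *Igfbp6*, which prefers IGF2, went from 7.64 ± 0.23 to 8.83 ± 0.14 (SD, n = 3), a difference of 1.19 (SE 0.15, adjusted p = 0.003). *Igfbp3*, the main carrier in serum, went from 7.20 ± 0.11 to 7.93 ± 0.23, a difference of 0.72 (SE 0.15, adjusted p = 0.017). *Igfbp5*, which binds matrix, passed on 2 of its 3 probes, with differences of 0.63 (adjusted p = 0.034) and 0.65 (adjusted p = 0.029), while its brightest probe differed by 0.39 (adjusted p = 0.144). *Igfbp7*, a low-affinity relative, passed on 0 of 5 probes in limma, and its brightest differed by 0.17 (adjusted p = 0.522), with the nearest to the threshold at an adjusted p of 0.062. With an intensity trend in the variances, and among probes above the median alone, *Igfbp7* was called higher. At 4 and 8 weeks the brightest probes differed by 0.54 and 0.48 for *Igfbp6*, 0.27 and -0.12 for *Igfbp3*, 0.07 and 0.29 for *Igfbp5*, and 0.29 and 0.36 for *Igfbp7*.

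The stanniocalcins moved apart at 2 weeks. *Stc1* rose from 5.95 ± 0.04 to 6.67 ± 0.16 (SD, n = 3), by 0.72 (SE 0.13, adjusted p = 0.011). Its contralateral level lay below the array medians of 6.55 to 6.56. *Stc1* was absent from the alternative that kept only probes above the median. *Stc2* fell from 10.02 ± 0.14 to 9.04 ± 0.22, by 0.98 on the log2 scale (SE 0.15, adjusted p = 0.005). At 4 weeks the *Stc2* arrays were also all lower in DMM, with a difference of -0.77 (adjusted p = 0.119), and at 8 weeks the difference was -0.12 (adjusted p = 0.888). *Htra1*, a proteinase that cuts binding proteins, differed by 0.57, 0.24 and 0.22 (adjusted p = 0.137, 0.567 and 0.720).

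Of the 7 other genes of the growth hormone pathway 0 passed in limma at any week, and of the 5 other SOCS genes measured *Socs3* rose at 2 weeks. *Stat3* of that pathway, a transcription factor of IL-6 family cytokines, came close at 2 weeks, with a difference of 0.78 (SE 0.21, adjusted p = 0.051) on the nearest of its 3 probes and 0.32 (adjusted p = 0.209) on its brightest, and it was called higher in 7 of 12 alternatives. *Socs3*, which encodes an inhibitor of cytokine signalling through the IL-6 receptors, rose from 6.68 ± 0.03 to 7.66 ± 0.21 (SD, n = 3), by 0.98 (SE 0.14, adjusted p = 0.004), and differed by 0.88 (adjusted p = 0.065) and 0.39 (adjusted p = 0.639) at 4 and 8 weeks. The growth hormone receptor *Ghr* differed by -0.39 (SE 0.20), -0.02 (SE 0.13) and -0.37 (SE 0.22), with adjusted p = 0.283, 0.963 and 0.687. *Cish*, like *Socs2* a STAT5 target, differed by -0.09, 0.08 and -0.42 (adjusted p = 0.821, 0.869 and 0.627). *Socs4*, *Socs5* and *Socs6* differed by 0.19, 0.22 and 0.06 at 2 weeks, by 0.30, 0.13 and -0.34 at 4 weeks and by -0.27, -0.11 and -0.12 at 8 weeks, with adjusted p above the threshold for each. *Socs3* kept its 2-week call under all 12 alternatives, as did *Igfbp6* and *Stc2*.

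Downstream of the receptors 2 genes rose at 2 weeks and 1 fell. *Grb10*, an adaptor that restrains insulin and IGF1 receptors, rose from 9.20 ± 0.31 to 10.11 ± 0.11 (SD, n = 3), by 0.91 (SE 0.17, adjusted p = 0.011), while its second probe differed by 0.23 (adjusted p = 0.339). *Foxo3*, a transcription factor that AKT keeps out of the nucleus, rose by 0.64 (SE 0.16, adjusted p = 0.035). *Rheb*, the GTPase that activates mTORC1, fell on its brightest probe by 0.76 on the log2 scale (SE 0.19, adjusted p = 0.036), and its 3 other probes did not pass.

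The other 7 of the 10 calls at 2 weeks were lost when some single array was left out. *Foxo3* and *Rheb* missed the threshold when any of contralateral replicate 1 or the 3 DMM replicates was left out (adjusted p up to 0.162 and 0.163), and *Foxo3* also without contralateral replicate 2 (0.060). *Igfbp5* missed it without contralateral replicate 1 or without any DMM replicate (up to 0.135). *Igfbp3* missed it without DMM replicate 1 (0.063) or 3 (0.103), *Grb10* without DMM replicate 2 (0.064) or 3 (0.058), *Igf2r* without DMM replicate 2 (0.0502), and *Stc1* without DMM replicate 3 (0.072) and in 1 fit of all 18 arrays (0.0505).

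**Figure D3:**
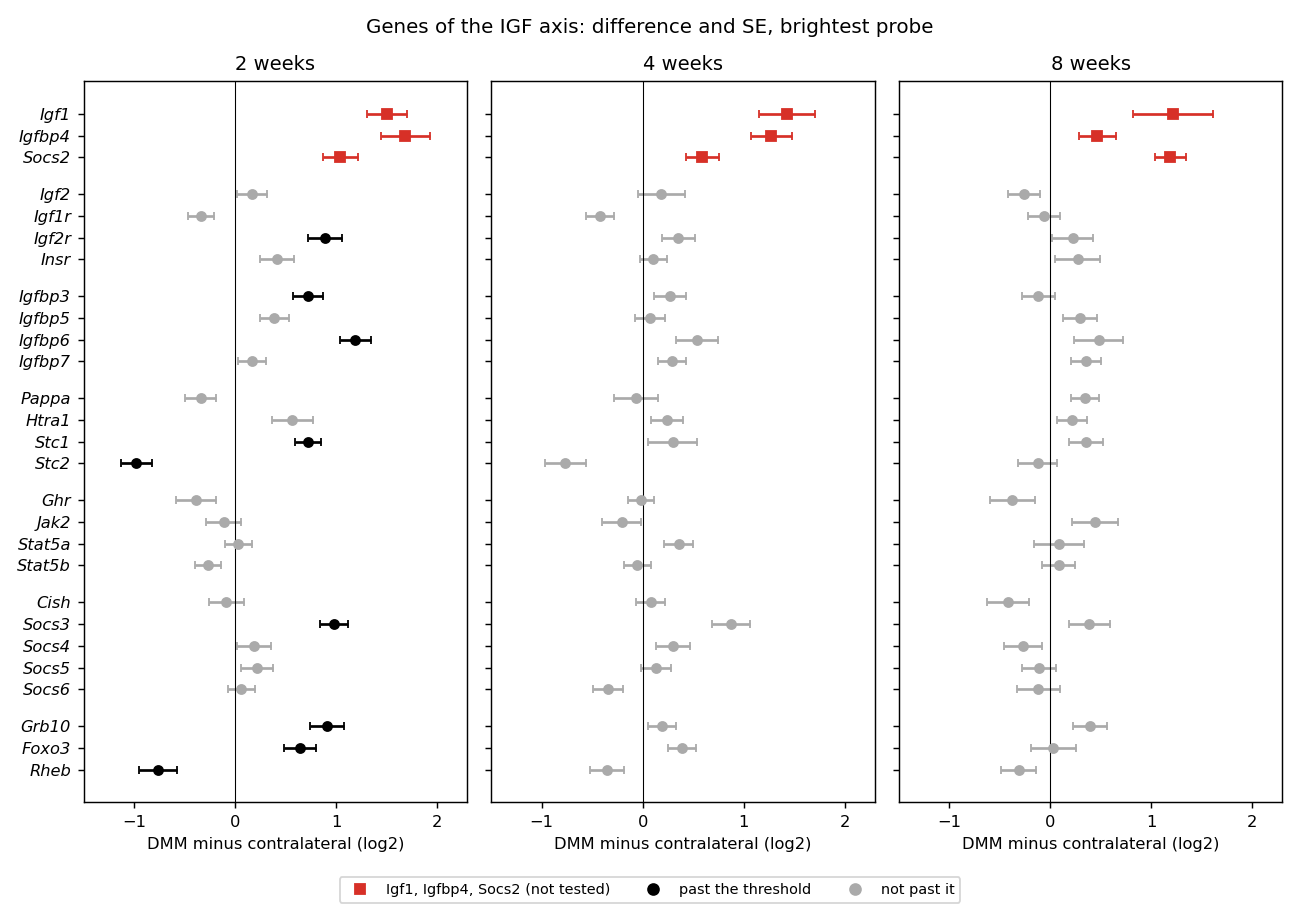
Difference of group means, DMM minus contralateral, in log2 intensity for the brightest probe of *Igf1*, *Igfbp4* and *Socs2* (red squares, not tested) and of other genes of the IGF axis at each week; black marks an adjusted p under 0.05 and grey none, and whiskers are 1 SE (n = 3 arrays per group). The black points stand at 2 weeks only, and *Igfbp5*, called there on its other probes, is grey.

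The labelled tissue was checked against markers of cartilage and its neighbours. *Col2a1* and *Acan*, the main cartilage collagen and proteoglycan, read 12.20 ± 0.14 and 11.65 ± 0.15 in 2-week contralateral cartilage and 12.65 ± 0.25 and 11.33 ± 0.18 in 2-week DMM cartilage (SD, n = 3), with adjusted p = 0.120 and 0.222. Of 16 chondrocyte markers *Col9a1* rose and *Chad* fell at 2 weeks, and 0 passed in limma at 4 and 8 weeks. Of all genes, 4.89%, 0.504% and 0% had a probe called higher at 2, 4 and 8 weeks. A probe called lower was seen for 3.77%, 0.435% and 0%. The chondrocyte counts, 1 of 16 each way, lay near the 2-week shares. Markers of other cells were also present. Of 14 skeletal muscle markers 13, 12 and 0 fell at 2, 4 and 8 weeks, of 10 adipocyte markers 2 fell at 2 weeks, and *Myh4*, a muscle myosin, differed by -3.20 and -2.05 at 2 and 4 weeks (adjusted p = 0.002 for both). Of 11 neutrophil markers *Cxcr2* fell at 2 weeks and *Mpo* rose at 4 weeks. Their mean per array was 7.16 to 7.55 in contralateral and 6.56 to 7.36 in DMM cartilage at 2 weeks. It was 8.20 to 8.83 and 9.12 to 9.16 at 4 weeks, and 6.77 to 8.97 and 6.48 to 8.80 at 8 weeks. Of 11 osteoblast and osteocyte markers *Pdpn* rose at 2 and 4 weeks and *Sost* fell at 2 weeks. *Ctsk* of 6 osteoclast markers rose and *Hbb-b2* of 6 erythroid markers fell at 2 weeks.

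Fibroblast and synovium markers moved with *Igf1*, *Igfbp4* and *Socs2*. Of 17 measured, 11, 6 and 0 rose at 2, 4 and 8 weeks in limma, beside 4.89%, 0.504% and 0% of all genes. The mean level of the 17 markers per array ran from 8.90 to 9.67 in contralateral and 10.2 to 10.4 in DMM cartilage at 2 weeks. The ranges were 8.85 to 9.45 against 9.66 to 10.0 at 4 weeks and 9.17 to 9.34 against 9.60 to 9.89 at 8 weeks, so the groups were apart in each week. Of single probes, 13.6%, 9.18% and 7.29% had all DMM arrays above all contralateral arrays in these weeks. *Col3a1* of the 17 markers rose by 1.46 at 2 weeks (adjusted p = 0.007), while *Col1a1* differed by 0.50 (adjusted p = 0.114). No defining marker of the list was near the bottom of the scale, with *Col1a1* at 11.19 in 2-week contralateral cartilage. *Col1a1* and *Pdpn* also stand on the osteoblast and osteocyte list.

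Over the 18 arrays the mean of those markers had an r of 0.903 with *Igf1*, 0.909 with *Igfbp4* and 0.883 with *Socs2*, and of 0.627, 0.792 and 0.703 after group means were removed. *Lum*, among the genes nearest to *Socs2*, is itself one of the 17 markers. Of 16 macrophage markers 4, 1 and 0 rose at 2, 4 and 8 weeks, beside 4.89%, 0.504% and 0% of all genes. *Adgre1* was up by 1.09 at 2 weeks (limma, adjusted p = 0.007). The macrophage mean had an r of 0.719, 0.792 and 0.665 with the 3 genes, and of 0.507, 0.778 and 0.346 after group means were removed. Of 9 endothelial markers 1 rose at 2 weeks, where 4.89% of all genes had a probe called higher. For endothelial markers r was 0.728, 0.666 and 0.479, or 0.537, 0.2 and 0.267 within groups. For skeletal muscle markers r was -0.731, -0.777 and -0.662, or -0.206, -0.414 and -0.25 within groups. For chondrocyte markers r was -0.01, 0.01 and -0.11, or -0.269, -0.382 and -0.156 within groups. The arrays do not show which cells of the pooled tissue, chondrocytes included, the RNA of a marker came from. More cells of a type and more RNA per cell cannot be told apart in it. The part of any of these cell types in the levels of *Igf1*, *Igfbp4* and *Socs2* was not tested.

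**Figure D4:**
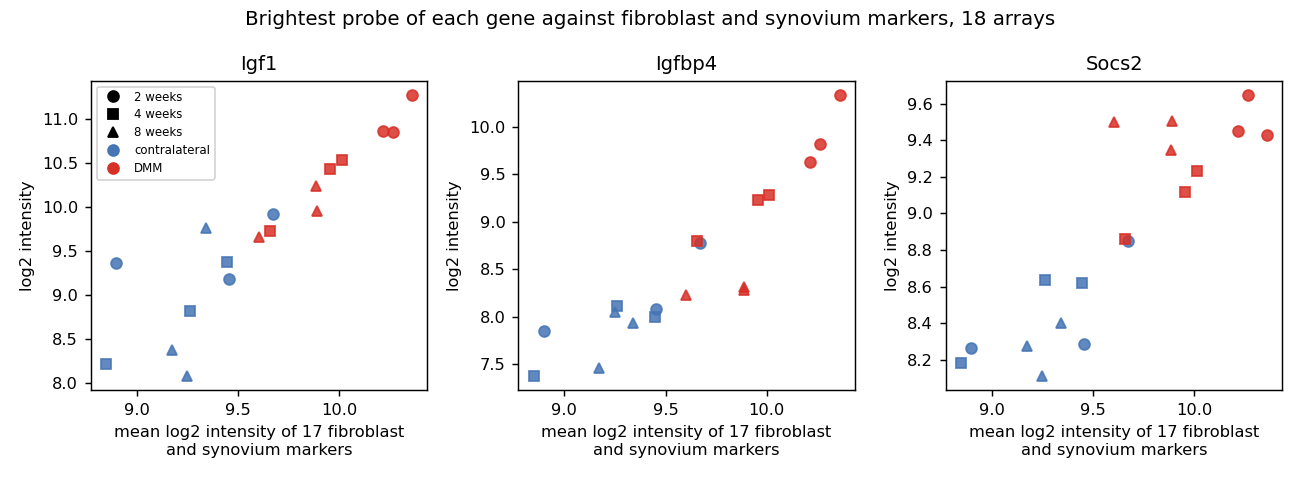
Log2 intensity of the brighter probe of *Igf1*, *Igfbp4* and *Socs2* against the mean log2 intensity of 17 fibroblast and synovium markers in the 18 arrays, coloured by knee and shaped by week. The points climb from the contralateral to the DMM arrays (r = 0.903, 0.909 and 0.883), and the 3 DMM arrays of 8 weeks lie low for *Igfbp4* and high for *Socs2* at their marker level.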

How the data were processed

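The authors hybridised amplified RNA (NuGEN) of 18 cartilage pools to Illumina mouse bead arrays and used lumi 2.8.0 under R 2.15.0 for quantile normalisation. The deposited values are log2 intensities of 22999 probes, from 4.62 to 14.67 on every array, with medians of 6.55 to 6.56. A second table was not used, since its 36 columns match no label. The number of arrays, 3 per group, limits the precision, and scan batches were not given in the sources used here.

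Groups came from the labels. Each week was fitted with limma 3.58.1 (R 4.3.3, statmod 1.5.0) on its 6 arrays, with Benjamini-Hochberg adjustment over all probes at 0.05, two-sided. The change of effect used all 18 arrays. The script was tested on simulated data. A gene was called if any probe passed, and its value is from the probe with the highest mean. Probe names came from the platform annotation: 18998 probes had 1 gene, 6 several and 3995 were not listed. 6 list symbols were updated through RefSeq synonyms.

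The genes and lists were chosen with earlier results of these data known. Named were the probes of the 3 genes, the axis genes with a call, *Igf2*, *Igf1r*, *Ghr*, binding proteins and SOCS genes, and for each of the 3 genes the 5 most alike and 2 most opposed. *Insr*, *Htra1*, *Pappa*, *Stat3*, *Col3a1*, *Lum* and *Fmod* as examples were chosen after their values were seen. Alternatives were cyclic loess, 1 fit of all arrays, a variance trend, array weights, probes above the median, a replicate block, the mean of all probes and leaving out each array. Plots were made in matplotlib 3.10.9 (Python 3.11.15).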

Additional observations from a re-analysis of the deposited data

Results flagged for a closer look

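*Pappa*, which encodes the proteinase that cuts IGFBP4, lay on opposite sides at 2 and 8 weeks, and was picked for that after its values were seen. At 2 weeks it read 6.46, 6.55 and 6.80 in contralateral and 6.37, 6.02 and 6.40 in DMM cartilage, with every DMM array below every contralateral one. At 8 weeks it read 6.20, 6.17 and 6.31 against 6.62, 6.53 and 6.55, with every DMM array above, as 7.29% of all probes had. The share of probes in the 2-week order was not counted. These levels lay around the array medians of 6.55 to 6.56. The differences were -0.34 (adjusted p = 0.228) and 0.34 (adjusted p = 0.553) by limma. The DMM effect differed between 8 and 2 weeks by 0.6835 (SE 0.27), which did not pass the interaction test over all probes (limma, adjusted p = 0.405). At 4 weeks the groups overlapped, with a difference of -0.06.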

How the results depend on the processing

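With 3 arrays a group, precision rests on few pools, the signal over background and the batch of each array are not known here, and the 2 probes of a gene gave different sizes. Of the alternative values for *Igf1*, *Igfbp4* and *Socs2*, 87 moved by less than 1 SD between replicates, 3 moved further and none changed sign. Those 3 came from the mean of both probes, which gave 1.97 for *Igf1* at 2 weeks and 0.78 and 0.85 for *Socs2* at 2 and 8 weeks. Leaving out 1 of 3 arrays cannot move a difference by 1 such SD, and the replicate block leaves the difference unchanged. Values from those alternatives could not have counted as moved, so the count of 87 is no measure of robustness. Leaving out each array in turn gave 1.36 to 1.72, 1.13 to 1.72 and 0.89 to 1.73 for *Igf1* at 2, 4 and 8 weeks, 1.48 to 1.96, 1.05 to 1.43 and 0.29 to 0.58 for *Igfbp4*, and 0.94 to 1.23, 0.44 to 0.70 and 1.11 to 1.26 for *Socs2*.

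The number of probes called at 4 weeks was 147, and 36 in 1 fit of all arrays, 316 with an intensity trend and 341 with the replicate block. At 8 weeks it was 0, and 112 in 1 fit, 4 with the trend and 3 among probes above the median. With the trend *Socs3* was called higher at 4 weeks, the 1 such gene of the axis. Leaving out arrays gave 390 to 1574, 50 to 192 and 0 to 1 probes at 2, 4 and 8 weeks (1525 with all arrays at 2 weeks), 3 to 9 axis genes higher and 1 to 2 lower at 2 weeks, and 0 to 0, 0 to 3 and 0 to 3 probes for the change of effect from 2 to 4, 2 to 8 and 4 to 8 weeks. The cause was not tested.

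Same-numbered arrays of the knees had correlated deviations from -0.117 to 0.163, and 2, 6 and 0 of 6 arrays correlated best with their own number at 2, 4 and 8 weeks. At 4 weeks all 3 correlations were above 0, from 0.0766 to 0.163, which is a hint of pairing in that week from the data and not from the labels. Since the labels pair no arrays and the correlations were not all over 0.1 in any week, the numbers were not taken as pairs. Both knees came from the same mice, so the main fits treat as independent arrays that may be paired. With the replicate block 1414 probes were called at 2 weeks, and at 4 weeks 1 axis gene was higher (*Socs3*) and 1 lower (*Stc2*). Of the alternative values of the 10 called axis genes at 2 weeks, 20 lost the call and 99 kept it. Calls gained there were *Stat3*, higher in 7 of 12 alternatives, and *Igfbp7*, higher in 2 of 12.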
